A study of Gallus gallus with 6 samples.

Results

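The genes described here encode the proteins of the cytosolic ribosome. They were chosen by name, as the rows of a gene count table whose symbol opens with RPL or RPS followed by a digit, and 78 of 24356 rows met this rule. Of these, 68 encode ribosomal proteins or their close paralogues, 42 of the large subunit and 26 of the small subunit, and 6 of the 68 are paralogues (RPL3L, RPL7L1, RPL22L1, RPL26L1, RPL36AL and RPS27L). The other 10 rows matched by name alone: 9 encode S6 kinases and 1 encodes RPS19BP1, a binding partner of RPS19. Of 73 standard ribosomal protein symbols that fit the name rule, 62 had a row. RPSA, which the rule does not reach, and, for example, RPS9, RPS18, RPS25, RPS27, RPL10, RPL13A, RPL18, RPL28, RPL36A and RPL41 had no row of that name and were not analysed here.

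RNA was sequenced from chick head ectoderm cells, 3 samples with Sox8 misexpressed (Sox8OE) and 3 Control samples. Plasmids were electroporated into embryos of head fold stages, which were grown for 16 to 24 h at 38 °C. The otic placode of the embryo itself was cut away before cells positive for both red and green fluorescence were sorted. Sox8OE cells carried pCES-Sox8-mCherry, from which Sox8 and the red protein mCherry are made, and pTK-Lmx1aE1-EGFP, in which an otic enhancer drives the green protein EGFP. Control cells carried, by the labels, pCES-mCherry and pCES-EGFP, in which the green protein does not depend on that enhancer. The study's methods name the backbone of the Control plasmids pCES in one section and pCAB in another, and the promoter of pCES is not given in the sources used here. The groups therefore differed in Sox8 and also in how green cells were chosen, since Sox8OE cells were picked for activity of the otic enhancer and Control cells were not. These 2 differences cannot be told apart.

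A ribosome is built from ribosomal RNA and a single copy of most of its proteins, so cells generally make the proteins of both subunits in step. The small subunit reads the messenger RNA, and the large subunit joins amino acids and houses the stalk that recruits translation factors. In vertebrates the transcripts of these proteins are among the most abundant in growing cells, and they share a sequence at their start that lets growth signals switch their translation on and off together. That control of translation cannot be read from the amount of RNA measured here.

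Total counts were 26326573 to 46586658 per sample, and the 2 smallest totals were those of Sox8OE replicates 2 and 3. SOX8 had 773 to 2147 counts in the Control samples and 8500 to 9931 in the Sox8OE samples, with reads of the construct included (log2 fold change 2.97 ± 0.36 SE, DESeq2 adjusted p = 4.0e-13). Sox8OE replicate 1 carried this rise like the other samples of its group but stood apart from them in ribosomal protein genes. The SD of log2 differences from Control over all genes (mean of at least 10) was 1.69 and 1.45 in Sox8OE replicates 2 and 3. In Sox8OE replicate 1 it was 1.09, so that sample was nearer to Control there too. Values without it are given beside many results, with a warning that holds for each: the sample left out is the one nearest to Control in these very genes, so p-values and calls without it depend on the outcome and describe Sox8OE replicates 2 and 3, and they do not support a difference between the groups. Of the 9 head ectoderm markers found of 10 listed, the summed normalised count was 24014 to 27816 in Control and 31773 to 42501 in Sox8OE, with the highest value in Sox8OE replicate 1. For 4 of 5 neuron markers it was 12317 to 13074 and 7747 to 10953, for 6 of 6 neural markers 12427 to 15160 and 11335 to 11643, for 4 of 5 neural crest markers 9128 to 11016 and 10839 to 14251, for 6 of 6 head mesenchyme markers 1526 to 2344 and 1029 to 1709, and for 7 of 8 vessel and blood markers 114 to 394 and 168 to 265. Such sums rest mostly on the genes with most counts and can hide opposite directions. Over the 9 head ectoderm markers, the median log2 difference from Control was 0.82, 1.76 and 1.27 in Sox8OE replicates 1 to 3. That median was thus lowest in Sox8OE replicate 1, where the sum of these markers was highest. Log2 fold changes were above 0 for 8 head ectoderm markers and below for 1. For neuron markers these numbers were 0 and 4, for neural markers 3 and 3, and for vessel and blood markers 4 and 2. For neural crest markers they were 2 and 2 (median 0.07), and for head mesenchyme markers 3 and 3 (median -0.91). The haemoglobin gene HBBA was at 0 in every sample, and HBM had no count in the Sox8OE samples. The part of these differences in cell make-up in the results below was not tested. In such bulk samples fewer cells of a type and less RNA per cell cannot be told apart.

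The family took a larger share of all counts in Sox8OE replicates 2 and 3 than in any other sample. In order of replicate number, the 68 genes held 4.997%, 6.83% and 5.06% of counts among Control samples against 5.24%, 10.7% and 8.22% among Sox8OE samples. The group values were 5.63% ± 1.04 and 8.05% ± 2.73 (SD, n = 3 each), and they overlapped because Sox8OE replicate 1 lay below Control replicate 2. The 95% Wilson interval of a single sample's share was at most 0.0226 percentage points wide, but this covers counting error only. Leaving out each sample in turn moved the difference of 2.42 percentage points to between 1.10 and 3.83, the lowest without Sox8OE replicate 2 and the highest without Sox8OE replicate 1.

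**Figure D1:**
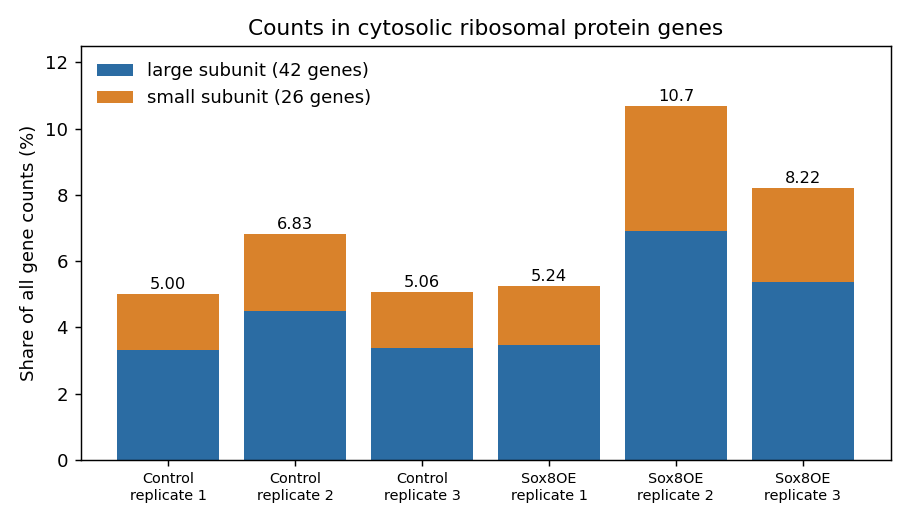
Share of all gene counts (%) held by the 42 large subunit genes (blue) and the 26 small subunit genes (orange) in each of the 6 samples, with the sum printed above each bar. Sox8OE replicates 2 and 3 stand at 10.7% and 8.22%, above every Control sample, whereas Sox8OE replicate 1, at 5.24%, lies among the Control values.

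Both subunits contributed. The mean share rose by more percentage points for the large subunit, from 3.73% to 5.25%, than for the small one, from 1.90% to 2.80%, but in proportion slightly more for the small one. Large subunit genes took 3.33%, 4.49% and 3.37% of counts in the Control samples and 3.47%, 6.91% and 5.37% in the Sox8OE samples. Small subunit genes took 1.67%, 2.34% and 1.69%, then 1.77%, 3.78% and 2.84%. The ratio of large to small subunit counts was 1.996, 1.92 and 1.996 in Control (1.97 ± 0.0455, SD, n = 3) and 1.95, 1.83 and 1.89 in Sox8OE (1.89 ± 0.0634, SD, n = 3). In both groups the sample with the largest share had the lowest ratio, and the Sox8OE range overlapped the Control range through replicate 1. The size of this ratio depends on transcript lengths, so only its change between samples can be read.

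Gene by gene, the level of each member was expressed as the log2 difference of its normalised count (plus a pseudocount of 1) from its Control mean. The median over the 68 genes was -0.12, 0.32 and -0.21 for Control, in order of replicate number, against -0.05, 0.88 and 0.32 for Sox8OE. Control replicate 2 was thus as far up as Sox8OE replicate 3, while Sox8OE replicate 2 was farther up. Both of these Sox8OE samples differed from Control replicate 2 in spread. In Control replicate 2 nearly the whole family lay a little higher, 67 of 68 genes lying above their Control mean. Sox8OE replicates 2 and 3 had 55 and 46 genes above it and 13 and 22 below. Across the 62 genes without paralogues the differences ran from 0.01 to 0.72 in Control replicate 2, from -0.26 to 0.29 in Sox8OE replicate 1, from -0.95 to 2.48 in Sox8OE replicate 2 and from -1.14 to 1.53 in Sox8OE replicate 3. A wide spread was not particular to the family. Over all genes tested with a mean of at least 10, the SD of this difference was 1.69 and 1.45 in Sox8OE replicates 2 and 3. It was 1.09 in Sox8OE replicate 1 and 0.58 to 0.68 in Control. Each Control sample enters the mean it is compared with, which narrows its spread. Over the 68 genes the SD was smaller, at 0.77 and 0.59 in Sox8OE replicates 2 and 3. The 2 sets were not matched in count level, since 67 of the 68 genes had a mean of at least 100 normalised counts.

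**Figure D2:**
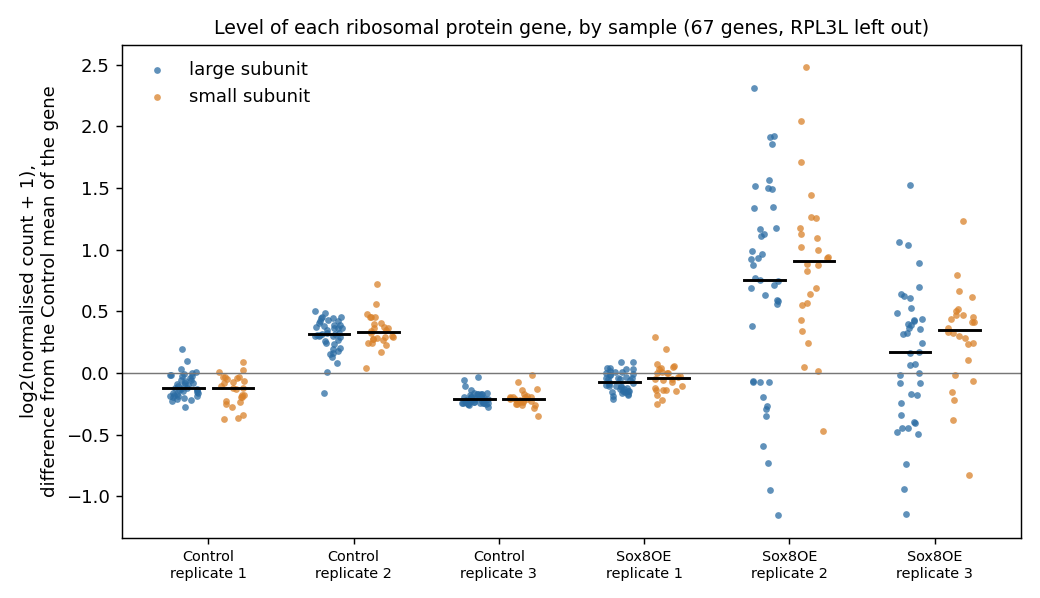
Log2 difference of each ribosomal protein gene from its Control mean (vertical axis) in each of the 6 samples, with 1 point per gene, large subunit genes in blue and small subunit genes in orange; bars are medians over the genes shown. The 4 samples on the left form narrow bands, and Sox8OE replicates 2 and 3 spread widely around medians above 0.

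The medians of the 2 subunits differed little in this measure. In Sox8OE replicate 2 the median difference was 0.76 for the large and 0.91 for the small subunit, and in Sox8OE replicate 3 it was 0.21 and 0.35. In Control replicates 1, 2 and 3 the 2 medians were nearly equal, at -0.12 and -0.12, 0.32 and 0.33, and -0.21 and -0.21. Genes lying above all 3 Control samples in both Sox8OE replicates 2 and 3 made up 18 of 42 large and 15 of 26 small subunit genes, together 33 of 68 or 48.5%, where 31.9% of all genes tested did so. Genes below all Control samples in both were 8 of 42 large and 1 of 26 small subunit genes, together 13.2% against 30.2% of all genes. These 2 samples were singled out for their high family level, so the excess above Control follows from that choice and is no finding. With all 3 Sox8OE samples, 1 of 68 genes lay above every Control sample, against 10.1% of all genes. Below every Control sample lay 1 of 68, against 9.1%.

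Tested across all 3 samples of each group, no member differed. With DESeq2, 0 of 68 genes reached an adjusted p under 0.05, where 5.28% of the 15993 genes tested did, and accordingly 0 passed the added fold threshold of the study's methods (absolute log2 fold change over 1.5), which 4.31% of all genes passed. An unadjusted p under 0.05 was found for 7 of 68 genes (RPL3, RPL12, RPL9, RPL10A, RPS20, RPS28 and RPS19, all higher in Sox8OE), where 21.8% of all genes had one. The edgeR quasi-likelihood test and limma voom also called 0 genes, with 6 and 4 at an unadjusted p under 0.05, and called 0.276% and 0.222% of all genes. The median log2 fold change was 0.30 for the large and 0.45 for the small subunit, beside 0.08 over all genes tested, and 52 of 68 were above 0. These estimates were wide: the median standard error was 0.37 and the 95% interval included 0 for 61 of 68 genes, yet its upper bound was above 1 for 39. Every Sox8OE value exceeded every Control value for RPL3L alone (1 of 68, against 10.1% of all genes) and was below every Control value for RPL5 alone (1 of 68, against 9.1%).

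The scaling, the replicate number and Sox8OE replicate 1 each changed this count. With samples scaled by their total counts, DESeq2 called RPL3, RPL12 and RPS20 higher (adjusted p = 0.0227, 0.0389 and 0.045), or 3 of 68 genes, where 8.67% of all genes were called. With the replicate number as a block, 7 of 68 genes (10.3%) were called higher and 0 lower, where 8.28% and 10.3% of all genes were. No label states that samples of equal number were paired. The block rests on weak correlations in these same data (0.115 to 0.150), and this limit holds for each block value below. Without Sox8OE replicate 1, DESeq2 called 31 of 68 genes higher (45.6%) and 4 lower (5.88%), and the background rose as well, to 17.8% and 21.6% of all genes. The 31 were 17 large and 14 small subunit genes, whereas all 4 that were lower, RPL30, RPL7L1, RPL26 and RPL7, belonged to the large subunit. The fold threshold was passed as well by 5 genes (RPL3, RPL12, RPL9, RPS20 and RPS28), where 18.3% of all genes passed it. With the block and without that sample, 35 were higher and 4 lower, against 15.7% and 20.4% of all genes. Since that sample was the one without the rise, these counts are a description of the other samples. With the block or without Sox8OE replicate 1, calls within this family were mostly towards higher levels. Among all genes they were spread over both directions. Given the limits of both settings, that contrast does not set the family apart from other genes. With all samples and no block, 0 of 68 members were called, and calls among all genes were mostly higher, 633 of 844.

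The genes farthest above the rest came from both subunits. RPS20, a protein of the head of the small subunit (ENSGALG00000014432), had normalised counts of 6458, 13779 and 6549 in Control and 8673, 46668 and 19609 in Sox8OE. Its log2 fold change was 1.48 ± 0.58 (SE, DESeq2 adjusted p = 0.111), or 1.26 ± 0.34 (adjusted p = 0.00334) with the block and 1.88 ± 0.38 (adjusted p = 6.36e-06) without Sox8OE replicate 1. Sox8OE replicate 1 lay inside the Control range and the other samples of its group above it.

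RPL3, which reaches towards the peptidyl transferase centre (ENSGALG00000012172), had 22889, 29398 and 20181 normalised counts in Control and 25424, 89881 and 68774 in Sox8OE. Its log2 fold change of 1.34 ± 0.47 (SE) came with the smallest adjusted p of the family, 0.0669 by DESeq2 and 0.231 by edgeR. With the block it was 1.19 ± 0.36 (adjusted p = 0.0101) and without Sox8OE replicate 1 it was 1.70 ± 0.24 (adjusted p = 2.87e-11). Its values in Sox8OE replicates 2 and 3 lay closer together than those of RPS20, and both were above every Control sample.

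RPL12, which forms the base of the factor-binding stalk with RPLP0 (ENSGALG00000008806), had 9220, 13648 and 9421 normalised counts in Control and 10657, 52702 and 22058 in Sox8OE (log2 fold change 1.40 ± 0.54 SE, DESeq2 adjusted p = 0.102). RPL9, near the site where translation factors bind (ENSGALG00000000150), had 41754, 55404 and 38641, then 44879, 169228 and 92060 (1.17 ± 0.48, adjusted p = 0.129). In Sox8OE replicate 2 RPL9 held 5.02% of the counts of the family, more than any other member, against 2.14% to 2.22% in the Control samples. RPL10A, the protein of the mobile stalk by which spent tRNA leaves (ENSGALG00000002644), had 11400, 17789 and 11056, then 12192, 47484 and 24355 (1.06 ± 0.50, adjusted p = 0.195). All 3 genes were called with the block, at adjusted p of 0.0146, 0.0275 and 0.0441, and without Sox8OE replicate 1, at 7.61e-07, 8.67e-07 and 3.79e-05.

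RPS28, at the exit of the mRNA channel (ENSGALG00000049538), had 6773, 11407 and 7164 normalised counts in Control and 8225, 33922 and 14231 in Sox8OE (log2 fold change 1.15 ± 0.52 SE, DESeq2 adjusted p = 0.173, or 0.0279 with the block and 8.36e-05 without Sox8OE replicate 1). RPS19, needed to mature the small subunit RNA and mutated in the human anaemia named after Diamond and Blackfan (ENSGALG00000037805), had 10648, 20190 and 11987, then 16814, 44975 and 21715 (0.96 ± 0.46, adjusted p = 0.204, or 0.0176 with the block and 0.0014 without Sox8OE replicate 1). In both genes Control replicate 2 was the highest Control sample and Sox8OE replicate 2 the highest Sox8OE sample.

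**Figure D3:**
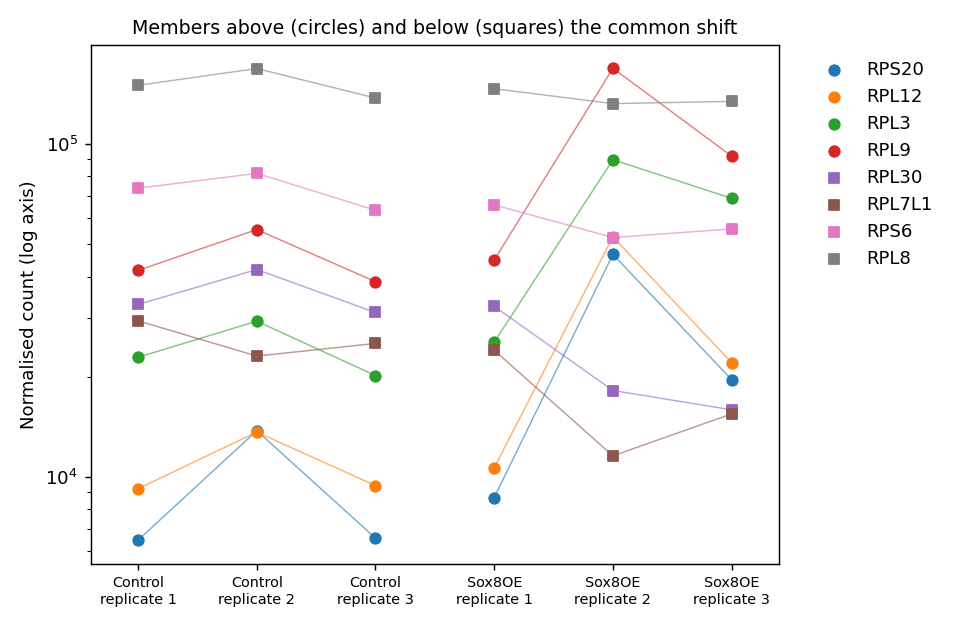
Normalised counts (log axis) of 8 ribosomal protein genes in the 6 samples, circles for genes above and squares for genes below the common change of Sox8OE replicates 2 and 3; lines only join points of a gene within a group. RPS20, RPL12, RPL3 and RPL9 are higher in Sox8OE replicates 2 and 3 than in any Control sample, RPL30 and RPL7L1 are lower, and Sox8OE replicate 1 lies near the Control samples for all 8.

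At the other end, RPL30, which in yeast also binds its own transcript (ENSGALG00000029897), had 32992, 42020 and 31215 normalised counts in Control and 32569, 18192 and 15923 in Sox8OE. Its log2 fold change was -0.67 ± 0.38 (SE, DESeq2 adjusted p = 0.274) and reached -1.07 ± 0.22 (adjusted p = 8.45e-06) without Sox8OE replicate 1. RPL7L1, a paralogue of RPL7 found in precursors of the large subunit in human cells (ENSGALG00000011974), had 29472, 23090 and 25201, then 24039, 11576 and 15477 (-0.61 ± 0.37, adjusted p = 0.309, and -0.95 ± 0.23, adjusted p = 0.000141, without that sample). In both genes Sox8OE replicates 2 and 3 lay below every other sample.

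RPL26, a large subunit protein near the exit of the peptide tunnel (ENSGALG00000049287), had 2533, 2724 and 2467 normalised counts in Control and 2505, 1554 and 1341 in Sox8OE (log2 fold change -0.52 ± 0.35 SE, DESeq2 adjusted p = 0.368, and -0.84 ± 0.22, adjusted p = 0.000599, without Sox8OE replicate 1). RPL7 had 37177, 42915 and 33309, then 33945, 24894 and 28297 (-0.38 ± 0.30, adjusted p = 0.43, and -0.52 ± 0.21, adjusted p = 0.0344). The Sox8OE replicate 1 value of each lay within its Control range.

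Departure from the rest of the family was counted by taking from each gene's difference the median over the 68 genes in the same sample. A gene departed when it lay more than 0.5 log2 units from that median, on the same side, in both Sox8OE replicates 2 and 3. By this rule 19 of 68 genes departed (27.9%), 6 above (RPL3L, RPL3, RPS20, RPL12, RPL9 and RPL10A) and 13 below (among them RPL30, RPL26, RPL7L1, RPS13, RPL24, RPL4, RPL23A, RPL7, RPL5, RPS6, RPL7A and RPS29). Among the 5155 genes with a mean of at least 1000 normalised counts 58.4% lay as far from the median of such genes. Of the 19, 15 are large and 4 are small subunit genes. Just inside the limit was RPS29, at -0.54 and -0.54, and just outside were RPL11, at -0.95 and -0.496, and RPL34, at -0.496 and -0.80. The departures themselves chose these genes and carry no test.

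**Figure D4:**
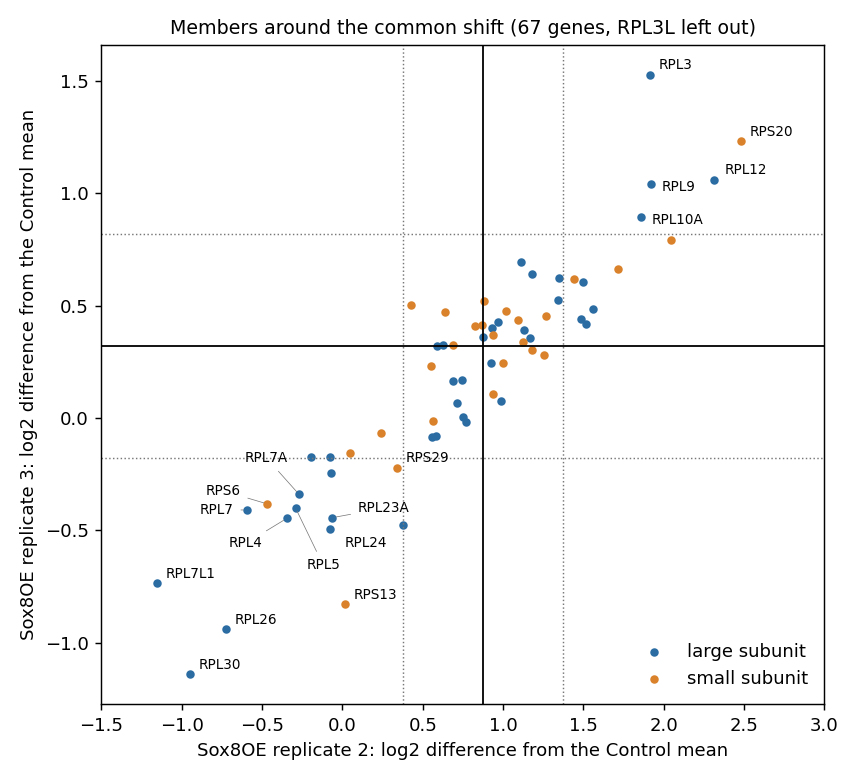
Log2 difference from the Control mean in Sox8OE replicate 2 (horizontal axis) and Sox8OE replicate 3 (vertical axis) for 67 ribosomal protein genes, with the family median of each sample as a solid line and 0.5 to each side of it dotted; large subunit genes are blue, small subunit genes orange, and departing genes the text gives are named. The genes lie along a diagonal from RPL30 and RPL7L1 at the lower left to RPS20, RPL12 and RPL3 at the upper right.

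The 2 samples ordered the members alike. Across 67 genes (RPL3L left out for its low counts) the differences in Sox8OE replicates 2 and 3 had a Pearson correlation of 0.915, and across 15005 genes with a mean of at least 10 it was 0.744. These values describe genes within samples that share their Control mean, and genes are not independent replicates. The 67 and the 15005 genes were not matched in count level. A weaker likeness appeared between the groups: the excess of Control replicate 2 over the other Control samples and of Sox8OE replicate 2 over Sox8OE replicate 1 had a Pearson correlation of 0.671 and a Spearman correlation of 0.567 over the 67 genes, and 0.100 and 0.214 over the 15005 genes.

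Ratios of counts within a sample show the change of proportion without any scaling between samples. For each count of RPL30 there were 0.196, 0.328 and 0.210 counts of RPS20 in Control and 0.266, 2.57 and 1.23 in Sox8OE. For each count of RPL4, which lines the exit tunnel, there were 0.195, 0.223 and 0.191 counts of RPL3 in Control and 0.228, 0.970 and 0.796 in Sox8OE. For each count of RPL8, a protein at the heart of the large subunit, there were 0.278, 0.328 and 0.281 counts of RPL9 and then 0.306, 1.28 and 0.684. These pairs set genes that lay high in Sox8OE replicates 2 and 3 against genes that lay low there, so that those samples fell outside the Control range was fixed by the choice and is no finding. Sox8OE replicate 1, which did not enter that choice, was inside the range or, for RPL3 to RPL4, just above.

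Scaled to the family itself, with size factors taken from the 68 genes alone, DESeq2 again called 0 of 68 members (2 at an unadjusted p under 0.05, RPL3 and RPS20), where 1.87% of all genes were called. The edgeR quasi-likelihood test called 0, with 0 at an unadjusted p under 0.05. With the block DESeq2 called 2 members lower, RPL7L1 (-1.03 ± 0.36, adjusted p = 0.0282) and RPL30 (-1.10 ± 0.40, adjusted p = 0.0315), where 17.1% of all genes were called lower. Without Sox8OE replicate 1 it called 17 of 68. The 6 above the family (8.82%, against 5.91% of all genes) were RPL3, RPS20, RPL12, RPL9, RPS28 and RPL10A, and the 11 below (16.2%, against 25.5%) were RPL30, RPL26, RPL7L1, RPS13, RPL7, RPL4, RPS6, RPL24, RPL5, RPL23A and RPL7A. All of these but RPS28 were among the departing genes, which the same 2 Sox8OE samples had chosen. These 17 calls are thus no separate support for the departures. With all samples, scaling to the family put the median of all genes tested at -0.27.

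Among the large subunit genes with most counts, RPL8 (ENSGALG00000016232) had 150316, 168885 and 137671 normalised counts in Control and 146865, 132475 and 134524 in Sox8OE (log2 fold change -0.14 ± 0.27 SE, DESeq2 adjusted p = 0.768), a direction that turned when samples were scaled by total counts. RPL4 had 117641, 131577 and 105491, then 111428, 92620 and 86362 (-0.29 ± 0.29, adjusted p = 0.547). RPL7A had 73450, 83445 and 65258, then 71726, 61144 and 58182 (-0.22 ± 0.28, adjusted p = 0.654). In these large subunit genes, and in RPL9, which is also among the 4 with most counts, Sox8OE replicate 1 was within the Control range.

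Of the small subunit genes with most counts, RPS6, whose protein is phosphorylated by S6 kinases when growth signals are active, had 73792, 81763 and 63318 normalised counts in Control and 65749, 52445 and 55661 in Sox8OE (log2 fold change -0.33 ± 0.29 SE, DESeq2 adjusted p = 0.479). RPS3, which sits at the entry of the mRNA channel and also takes part in DNA repair, had 46012, 54153 and 38181, then 43849, 66810 and 53585 (0.25 ± 0.32, adjusted p = 0.652). RPS4X had a log2 fold change of 0.34 ± 0.33 (adjusted p = 0.543). RPS6 was the only small subunit gene below all Control samples in both Sox8OE replicates 2 and 3.

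Members with known roles outside the ribosome, in its regulation or in disease showed no common direction. RPL5 and RPL11 form a particle with 5S ribosomal RNA and bind the ubiquitin ligase MDM2 when ribosome assembly fails. RPL5 had 63721, 59770 and 55084 normalised counts in Control and 52690, 48548 and 45013 in Sox8OE, all lower, by a difference close to its error (log2 fold change -0.29 ± 0.27 SE, DESeq2 adjusted p = 0.516). RPL11 had 11449, 16209 and 10750, then 11348, 11959 and 11146 (-0.16 ± 0.31, adjusted p = 0.777, turned with total count scaling). The ratio of RPL5 to RPL11 counts ran from 3.69 to 5.57 in Control and from 4.04 to 4.64 in Sox8OE, within the Control range. RPS14, which is lost in a human marrow disorder, and RPL38, which mouse embryos need to translate Hox transcripts, had log2 fold changes of 0.15 ± 0.34 and 0.25 ± 0.39 (adjusted p = 0.812 and 0.717).

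Among the paralogues only RPL7L1 had a log2 fold change below 0. RPL26L1 had 26047, 39688 and 24096 normalised counts in Control and 28903, 55484 and 34621 in Sox8OE (log2 fold change 0.41 ± 0.39 SE, DESeq2 adjusted p = 0.527), close to the family median, whereas its partner RPL26 was far below it. The count ratio of RPL26L1 to RPL26 was 10.3, 14.6 and 9.77 in Control and 11.5, 35.7 and 25.8 in Sox8OE, so that Sox8OE replicates 2 and 3 lay above the Control range. Reads shared by such similar genes may have been split or dropped in counting, and the size of this ratio is uncertain.

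RPL22L1 had 13678, 17255 and 12414 normalised counts in Control and 15260, 26310 and 18391 in Sox8OE (log2 fold change 0.47 ± 0.34 SE, DESeq2 adjusted p = 0.401). Its partner RPL22 had 12689, 20265 and 12598, then 15113, 37494 and 21312 (0.70 ± 0.43, adjusted p = 0.313), and the ratio of the former to the latter was 0.851 to 1.08 in Control and 1.01, 0.702 and 0.863 in Sox8OE. Only Sox8OE replicate 2 lay outside the Control range. RPS27L and RPL36AL, whose partners had no row, had log2 fold changes of 0.49 ± 0.36 and 0.28 ± 0.36 (adjusted p = 0.398 and 0.649). RPL3L, in mammals the muscle form of RPL3, had 1, 37 and 69 raw counts in Control and 79, 60 and 97 in Sox8OE, too few for its fold change to be read (1.34 ± 0.98, adjusted p = 0.399).

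Ribosomal proteins named outside the rule had lower medians than the family in Sox8OE replicates 2 and 3. Of these 6 genes, 4 had a log2 fold change above 0 and 2 below. Their median log2 difference from Control was 0.62 and 0.13 in Sox8OE replicates 2 and 3. For the 68 family genes it was 0.88 and 0.32, and over all genes tested 0.08 and 0.11. In Control replicate 2 the median of the 6 genes was 0.36. Their summed share of counts nevertheless followed the pattern of the family. In order of replicate number it was 0.530%, 0.773% and 0.541% in Control and 0.584%, 1.15% and 0.886% in Sox8OE. RPLP0, RPLP1 and RPLP2 form the factor-binding stalk, and FAU encodes a ribosomal protein fused to a ubiquitin-like protein. RPLP1 had 59682, 87473 and 56150 normalised counts in Control and 69739, 160890 and 92684 in Sox8OE (log2 fold change 0.67 ± 0.41 SE, DESeq2 adjusted p = 0.311, and 0.00655 without Sox8OE replicate 1). RPLP0 had 50096, 65278 and 44282, then 51191, 42029 and 45035 (-0.21 ± 0.30, adjusted p = 0.693). RPLP1 and RPL12 were set against RPLP0 with their values known. For each count of RPLP0 there were 1.19, 1.34 and 1.27 counts of RPLP1 in Control and 1.36, 3.83 and 2.06 in Sox8OE, and 0.184, 0.209 and 0.213 of RPL12, then 0.208, 1.25 and 0.490. RPLP2, FAU and GNB2L1 (the RACK1 protein of the small subunit) had log2 fold changes of 0.45, -0.01 and 0.12, and none was called.

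The S6 kinases, which match the name rule but are not part of the ribosome, had lower counts, and none was called by DESeq2 over all samples. RPS6KB1, the main kinase of RPS6 (ENSGALG00000005198), had 3730, 2609 and 3379 normalised counts in Control and 2895, 1026 and 1154 in Sox8OE (log2 fold change -0.94 ± 0.46 SE, adjusted p = 0.214). It was called lower with the block (-1.09 ± 0.34, adjusted p = 0.0136) and without Sox8OE replicate 1 (-1.58 ± 0.25, adjusted p = 2.23e-09). Sox8OE replicates 2 and 3 were again the samples that differed.

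RPS6KL1 and RPS6KA3 pointed the other way, at 0.99 ± 0.51 and 0.84 ± 0.46 (SE, DESeq2 adjusted p = 0.234 and 0.256), and were called higher without Sox8OE replicate 1 (adjusted p = 0.00151 and 0.00142). RPS6KC1, RPS6KA1L, RPS6KA2, RPS6KA5 and RPS6KA6 had log2 fold changes from -0.80 to 0.45, of which RPS6KC1 was called lower without Sox8OE replicate 1 (-0.88 ± 0.34, adjusted p = 0.0265), and RPS6KB2 had 61 raw counts or fewer in every sample. RPS19BP1 had 5449, 6852 and 5889 normalised counts in Control and 6505, 2978 and 3915 in Sox8OE (-0.44 ± 0.38, adjusted p = 0.48, and -0.83 ± 0.23, adjusted p = 0.00127, without that sample).

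Lists of other genes of ribosome production and translation had lower medians than the ribosomal proteins. Assembly factors, which process ribosomal RNA and fold the subunits in the nucleolus, numbered 63 with a median log2 fold change of -0.46, and 23 of them (36.5%) lay below all Control samples in all 3 Sox8OE samples, where 9.1% of all genes did. By sample, their median log2 difference from Control was -0.23, -0.61 and -0.60 in Sox8OE replicates 1 to 3, so replicate 1 was below 0 too. DESeq2 called 1 of the 63, higher, where 5.28% of all genes were called, and 26 (41.3%) had an unadjusted p under 0.05, where 21.8% of all genes had one. With the block 5 were higher (7.94%, against 8.28% of all genes) and 17 lower (27.0%, against 10.3%). Without Sox8OE replicate 1 there were 12 higher (19.0%, against 17.8%) and 35 lower (55.6%, against 21.6%).

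The assembly gene that was called was RRP12, needed to export subunits from the nucleus. It had 1191, 3063 and 1543 normalised counts in Control and 2196, 14748 and 7650 in Sox8OE (log2 fold change 2.08 ± 0.62 SE, DESeq2 adjusted p = 0.0219). It lost the call with edgeR (adjusted p = 0.218), with limma voom and without Control replicate 1 or 3 or Sox8OE replicate 2 or 3. NPM1, a chaperone that is among the most abundant nucleolar proteins and was chosen after its values were seen, had 145329, 125391 and 122614, then 111596, 67289 and 68474 (-0.67 ± 0.33, adjusted p = 0.22).

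A list of 41 genes held initiation factors, which load ribosomes onto mRNA, with the inhibitors EIF4EBP1 and EIF4EBP2, the poly(A)-binding proteins PABPC1 and PABPC4, and TPT1, NACA and BTF3. Its median was -0.31 in log2 fold change, and 12 of the genes (29.3%) lay below all Control samples in all Sox8OE samples, where 9.1% of all genes did. EIF3F, a subunit of the scaffold that joins the small subunit to mRNA, was the 1 called (against 5.28% of all genes), with 1091, 1680 and 923 normalised counts in Control and 1520, 5076 and 3560 in Sox8OE (1.46 ± 0.48 SE, DESeq2 adjusted p = 0.0489). With the block 4 were higher (9.76%, against 8.28% of all genes) and 9 lower (21.95%, against 10.3%), and without Sox8OE replicate 1 there were 7 higher (17.1%, against 17.8%) and 23 lower (56.1%, against 21.6%). Elongation factors, RNA polymerase I subunits and growth regulators had medians of 0.19 over 8, -0.32 over 10 and 0.06 over 21 genes. YY1, a transcription factor among these regulators, was called with 527, 559 and 473, then 575, 2337 and 1717 (1.57 ± 0.50, adjusted p = 0.0374). EIF3F and YY1 lost the call under the same alternatives as RRP12, and in addition EIF3F with TMM factors and YY1 without Control replicate 2. RRP12, EIF3F and YY1 were the 3 genes called of 219 in these lists, the mitochondrial one below included, a smaller share than the 5.28% of all genes. All 3 were higher, as were 633 of the 844 genes called in all.

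**Figure D5:**
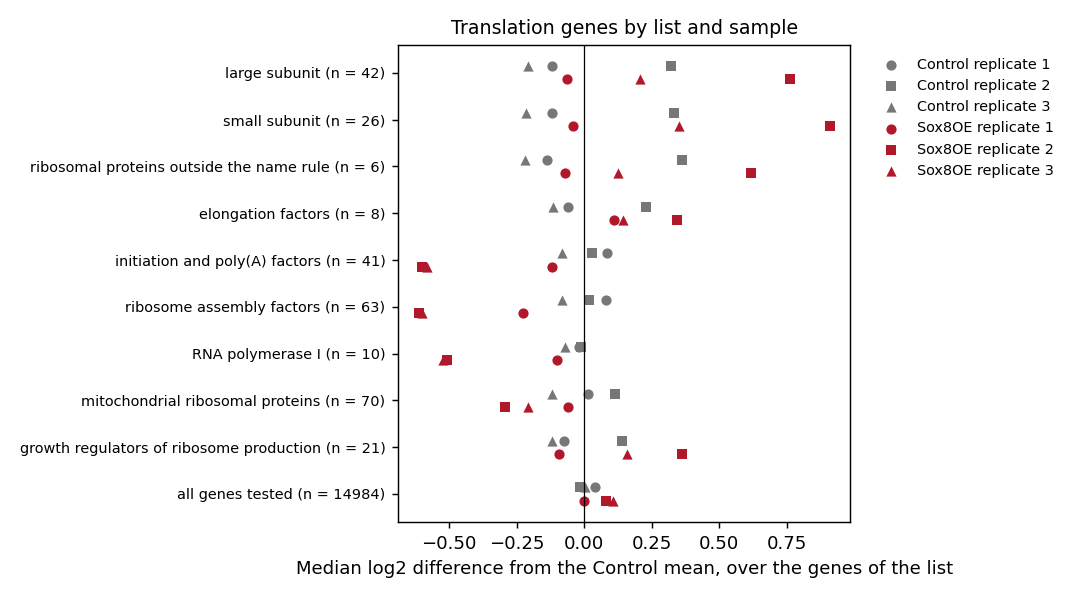
Median log2 difference from the Control mean (horizontal axis) over the genes of each translation list in each of the 6 samples, Control in grey and Sox8OE in red, with circles, squares and triangles for replicates 1, 2 and 3. The subunit lists lie to the right of 0 in Sox8OE replicates 2 and 3 and in Control replicate 2, whereas initiation and poly(A) factors, assembly factors and RNA polymerase I lie at -0.51 or lower in Sox8OE replicates 2 and 3.

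Mitochondrial ribosomal proteins, which build the separate ribosome of the mitochondrion, had a median below that of all genes. Over these 70 genes the median log2 fold change was -0.20, with 21 above and 49 below 0, and 17 of them (24.3%) lay below all Control samples in all 3 Sox8OE samples and 0 above, where 9.1% and 10.1% of all genes did. DESeq2 called 0 of 70 (against 5.28% of all genes), with 11 (15.7%, against 21.8%) at an unadjusted p under 0.05, and edgeR called 0. With the block 4 were higher (5.71%, against 8.28%) and 10 lower (14.3%, against 10.3%), and without Sox8OE replicate 1 there were 9 higher (12.9%, against 17.8%) and 26 lower (37.1%, against 21.6%). Their share of counts was 0.936% ± 0.0492 in Control and 0.876% ± 0.0463 in Sox8OE (SD, n = 3 each). In order of replicate number it was 0.909%, 0.992% and 0.905% in Control and 0.873%, 0.831% and 0.923% in Sox8OE. The lowest value was that of Sox8OE replicate 2, which had the highest cytosolic share. The highest was that of Control replicate 2, which had the highest cytosolic share among Control samples, so the 2 shares showed no steady relation.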

How the data were processed

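RNA was sequenced from 3 Sox8OE and 3 Control samples of sorted chick head ectoderm cells. Per the labels and the study's methods, the authors trimmed reads with Trim Galore, aligned them to galGal6 with STAR in the nf-core pipeline and deposited raw counts per gene made with featureCounts, with no normalisation. The annotation release, strand setting and treatment of reads shared between genes are not given in the sources used here, so counts of near-identical or overlapping genes are uncertain. Reads carry no molecular identifiers, and intervals on counts cover counting error only. Groups and replicate numbers came from sample titles, and all columns of values were used. The study's methods call the samples biological replicates, and the sources do not say which embryos entered each.

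Counts of the 21411 genes with at least 1 count entered DESeq2 1.42.0 (R 4.3.3), the test of the study's methods, with a term for group, default size factors and Benjamini-Hochberg adjustment over the 15993 genes with an adjusted p, and called at an adjusted p under 0.05, or at that and an absolute log2 fold change over 1.5. Counts were normalised by dividing by the size factor of the sample. Alternatives were edgeR 4.0.16, limma 3.58.1 voom, TMM factors, total counts, size factors from genes outside the family, a filter on low counts (10 or more in 3 or more samples), a replicate block, and leaving out each sample. Scripts were tested on simulated data. Deviations of same-numbered samples from their group means correlated at 0.150, 0.118 and 0.115, and the numbers were therefore taken as pairs, a hint from the data since no label states a shared embryo or day.

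Members, lists and markers were chosen with earlier results of these data known. Of 249 translation genes listed, among them 70 mitochondrial ones found by name, 219 were matched by symbol, 2 of them through a RefSeq table. Named genes were the 4 with most counts in each subunit, up to 6 called in each direction and up to 10 departing genes. They also held up to 6 called within the family, paralogues with partners, and members with known roles outside or in regulation of the ribosome. The rest were the other rows matching the name, ribosomal proteins outside it, and up to 4 called genes of each list. RPL12, RPL10A, RPS28, RPL34, RPS29, RPS6KB1 and other members outside this rule were named after their values were seen. Some genes met by the rule are not reported here. Genome positions, transcript lengths and sequences were not analysed here.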

Additional observations from a re-analysis of the deposited data

How the results depend on the processing

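The number of ribosomal protein genes past both thresholds, 0 with all samples, was 3 with total counts and 0 to 5 when each sample was left out, 5 being without Sox8OE replicate 1. The number at an adjusted p under 0.05 was 3 with total counts, 7 with the replicate block, 0 to 35 when each sample was left out, and 39 with the replicate block and without Sox8OE replicate 1, a setting chosen after seeing the data. Within the family 2 genes were called with the replicate block and 0 to 17 when each sample was left out. The 19 departing genes became 5 at a limit of 1.0 and 30 at 0.3, and 20 when any Control sample was left out. The 3 calls among other translation genes became 0 with edgeR, 0 with limma voom, 7 with total counts, 55 with the replicate block and 0 to 129 when each sample was left out, the highest again without Sox8OE replicate 1. Total counts put the median of all genes at 0.29, against 0.08. The median log2 fold changes of the large and small subunit stayed above 0 under every alternative named in the processing section. They were 0.06 to 0.53 and 0.12 to 0.63 when each sample was left out. The lowest were without Sox8OE replicate 2, where the median of all genes was 0.03. Scaled to the family itself, the subunit medians were -0.07 and 0.05.

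Single genes that changed sign were uncalled with all samples, and RPS6KC1 alone of them was called when a sample was left out, at the lower end of its range, without Sox8OE replicate 1. With total counts RPL8 stood at 0.062, RPL23A at 0.0099, RPL11 at 0.052, RPS6KA5 at 0.22 and FAU at 0.20. FAU stood at 0.020 with edgeR, 0.035 with limma voom, 0.00093 with the filter on low counts and 0.0051 with the replicate block. When each sample was left out, RPL36AL ranged from -0.025 to 0.46, RPS14 from -0.11 to 0.32, RPL11 from -0.27 to 0.035, RPL38 from -0.084 to 0.52, RPS6KC1 from -0.88 to 0.075, RPS6KA6 from -0.074 to 0.69, RPS6KA5 from -0.42 to 0.16, FAU from -0.13 to 0.16 and GNB2L1 from -0.025 to 0.24. Of 585 values for 45 named genes under these settings, 518 kept direction and side of the threshold, 23 gained a call, 20 lost one and 24 changed sign. The replicate block changed no call of a named gene beside those given above. The cause was not tested. With 3 samples a group and a median standard error of 0.37, log2 fold changes as large as 1.48 (RPS20) were not called with all samples.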
